A study of Mus musculus with 6 samples.

Results

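Timd4-negative Kupffer cells were picked out of single-cell transcriptomes of congested mouse livers as barcodes with the transcripts of a Kupffer cell but no molecule of Timd4. Barcodes needed 300 genes or more, 500 UMIs or more (unique molecular identifiers, that is counted RNA molecules) and no more than 30% mitochondrial UMIs. Members were selected on the UMIs of 18 genes. A member had UMIs of at least 3 of the 6 genes Clec4f, Vsig4, C1qa, Csf1r, Cd5l and Adgre1, with Clec4f or Vsig4 among them. It had no UMI of Timd4, Gpnmb or Ly6c2, UMIs of at most 2 of the 5 division genes Top2a, Mki67, Cenpf, Birc5 and Nusap1, and at most 1 UMI in all of Stab2, Clec4g, Cd79a and Reln. The rule found 1657 members among 38697 kept cells and 60000 barcodes. The levels of the selecting genes are given as a description with no test, apart from Timd4, which was tested over cells with and without it together. Every group came from wild-type male mice that underwent partial inferior vena cava ligation (pIVCL) at 8 to 10 weeks of age, a narrowing of the inferior vena cava by a ligature that backs blood up into the liver. After 2 weeks the mice received osmotic pumps with the vehicle DMSO or with CWHM-12, an inhibitor of all integrins that hold the αV subunit, at a dose of 100 mg/kg/day, for 4 weeks. There were 3 libraries in each group, and no liver without ligation was analysed here. The nearest cells for comparison were the 2289 barcodes that met every other part of the rule and had at least 1 Timd4 UMI, called Timd4-positive Kupffer cells here.

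Kupffer cells are the macrophages that live inside the liver sinusoids, where they clear particles, dying cells and aged red cells from the blood. Timd4 encodes TIM-4, a receptor for phosphatidylserine on dying cells, and in the mouse liver it is known as a marker of the long-lived resident population. Macrophages that enter the liver from monocytes take on genes of Kupffer identity such as Clec4f early and gain Timd4 late, so a Kupffer cell without Timd4 may be a recent arrival. A missing molecule in a shallow single-cell profile can also be a sampling zero.

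The libraries held 28220477 to 48100436 UMIs, and no pair shared more than 5 of its barcodes. Values by library are given throughout in the order of the replicates of DMSO and then of CWHM-12. DMSO 1, DMSO 2 and CWHM-12 1 belong to batch 2024.6, and DMSO 3, CWHM-12 2 and CWHM-12 3 to batch 2024.12. Each label speaks of a mouse without identifying it, so it is not known that the libraries of a group came from different mice, and p-values measure the spread between libraries, which may be technical. Members numbered 483, 141 and 336 in the DMSO livers and 437, 185 and 75 in the CWHM-12 livers, with 342102 to 1044972 UMIs in all per library. Their median depth was 1194, 1486 and 1584 UMIs in the DMSO livers and 1375, 2664 and 2619 UMIs in the CWHM-12 livers. Timd4-positive cells were deeper in every library, with medians of 2017 to 7513 UMIs. A further 4294 barcodes met the Kupffer part of the rule but had more than 1 UMI of Stab2, Clec4g, Cd79a and Reln, and their library medians were 8011 to 15782 UMIs.

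Clec4f and Vsig4 chose the members, so their shares are given as a description only. With every cell thinned to 1000 UMIs, Clec4f, a lectin receptor found on Kupffer cells, had a UMI in 61.3% to 86.1% of members across libraries. The share was 90.3% to 97.7% in Timd4-positive cells, 0.836% to 2.88% in B-like cells and 0.691% to 2.74% in sinusoidal endothelial-like cells. Without thinning, Clec4f was seen in 78.7% to 93.5% of members. Vsig4, a complement receptor of tissue macrophages, had a UMI in 58.7% to 83.7% of thinned members and in 0.505% to 1.57% of thinned B-like cells. Thinning left out the 364 members and 101 Timd4-positive cells with under 1000 UMIs. Shares of cells with a UMI carry counting error and free RNA, and the B-like and endothelial-like values serve as the background.

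The other markers attached to this population, Trem2 and Ms4a7, did not pass the test of a difference from Timd4-positive cells. Trem2, a lipid-sensing receptor of scar-associated macrophages, stood at 112, 36.3 and 108 CPM (counts scaled to the same total in each library) in the members of the DMSO livers and at 51.2, 56.8 and 6.99 CPM in the CWHM-12 livers. In Timd4-positive cells of the same libraries it stood at 95.6, 27.8, 105, 46.6, 45.3 and 14.8 CPM. The libraries differed far more than the 2 classes did, and CWHM-12 3 was lowest in each class. The log2 difference was 0.14 (SE 0.14, edgeR adjusted p = 0.602). Ms4a7, a membrane protein of monocyte-derived macrophages, averaged 204 ± 87.7 CPM in members and 231 ± 83.7 CPM in Timd4-positive cells (SD, n = 6 libraries, log2 -0.20, SE 0.10, edgeR adjusted p = 0.227). With every cell thinned to 1000 UMIs, Trem2 had a UMI in 1.33% to 12.5% of members, in 1.79% to 9.65% of Timd4-positive cells and in no B-like cell. The members are described here by the absence of Timd4, since neither gene set them apart by the test. The 72 Kupffer gate cells with Gpnmb UMIs, which the rule left out, held 351 Trem2 CPM, here and for other pooled cells without scaling, against 72.7 in the pooled members and 45.9 in the pooled Timd4-positive cells.

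Values on either side of the main thresholds of the rule were as follows. The 162 members with exactly 3 of the 6 macrophage genes held 342 Clec4f and 70.7 Cd163 CPM, and the 1495 members with 4 or more held 2606 and 524. Just outside, 250 barcodes with 2 of the 6 genes held 143 Clec4f CPM. On the other side of the Timd4 threshold, the 653 barcodes with exactly 1 Timd4 UMI held 4037 Clec4f and 1065 Cd163 CPM at a median of 1961 UMIs. The 394 members with 1 UMI of Stab2, Clec4g, Cd79a or Reln held 2523 Clec4f CPM, and the 112 barcodes left out for having exactly 2 such UMIs held 1923. Among members, Clec4f stood at 2705 CPM in barcodes under 1000 UMIs and at 1769 in the 238 barcodes with 4000 or more.

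The share of Kupffer cells that counted as Timd4-negative differed with sequencing depth. Pooled over libraries, members made up 78.3% of the 2 classes together among cells with under 1000 UMIs, 63.6% from 1000, 41.5% from 2000, 15.4% from 4000 and 15.9% from 8000 UMIs upward. The deep bins hold mostly cells of CWHM-12 2 and 3, and the libraries differed there. From 4000 to 8000 UMIs the share was 34.2%, 24.7% and 31.3% in the DMSO livers and 31.6%, 9.22% and 7.07% in the CWHM-12 livers. From 8000 UMIs upward it was 18.6%, 12.1%, 34.7%, 55.1%, 7.27% and 1.78% in the same order, so it did not go on falling in DMSO 3 and CWHM-12 1. At any depth, by library, members were 60.5% (Wilson 95% interval 57.0 to 63.8), 38.3% (33.5 to 43.4) and 54.8% (50.9 to 58.7) of these cells in the DMSO livers. They were 58.4% (54.9 to 61.9), 22.0% (19.4 to 24.95) and 12.98% (10.5 to 16.0) in the CWHM-12 livers. CWHM-12 1 lay within the DMSO range and the other CWHM-12 libraries lay under it. These intervals cover counting error only.

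The share overlapped between the treatments and did not pass the test of a difference. It averaged 51.2% ± 11.5 in DMSO and 31.1% ± 24.1 in CWHM-12 (SD, n = 3 each, exact two-sided permutation p = 0.3, where 20 assignments allow no p under 0.1). The difference over all libraries was -20.1 percentage points, but 9.04 points in batch 2024.6 and -37.3 points in batch 2024.12. With every cell thinned to 1000 UMIs before the rule was applied, the shares were 68.8%, 57.9% and 67.2% in the DMSO livers and 63.9%, 59.96% and 44.5% in the CWHM-12 livers. The difference shrank to -8.50 points (exact permutation p = 0.3), and at 2000 UMIs it was -7.26 points (exact permutation p = 0.6). These thinned shares are not those of the same cells. Barcodes with more than 1 UMI of Stab2, Clec4g, Cd79a and Reln at full depth could meet the rule once thinned. In CWHM-12 2, 975 of 1626 thinned barcodes counted as Timd4-negative, against 185 of 840 at full depth. Of the thinned Timd4-positive cells, 49.9% to 67.4% kept a Timd4 UMI at 1000 UMIs. The depth of the cells moved with the library and with the share, and its part in the remaining difference was not tested.

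**Figure D1:**
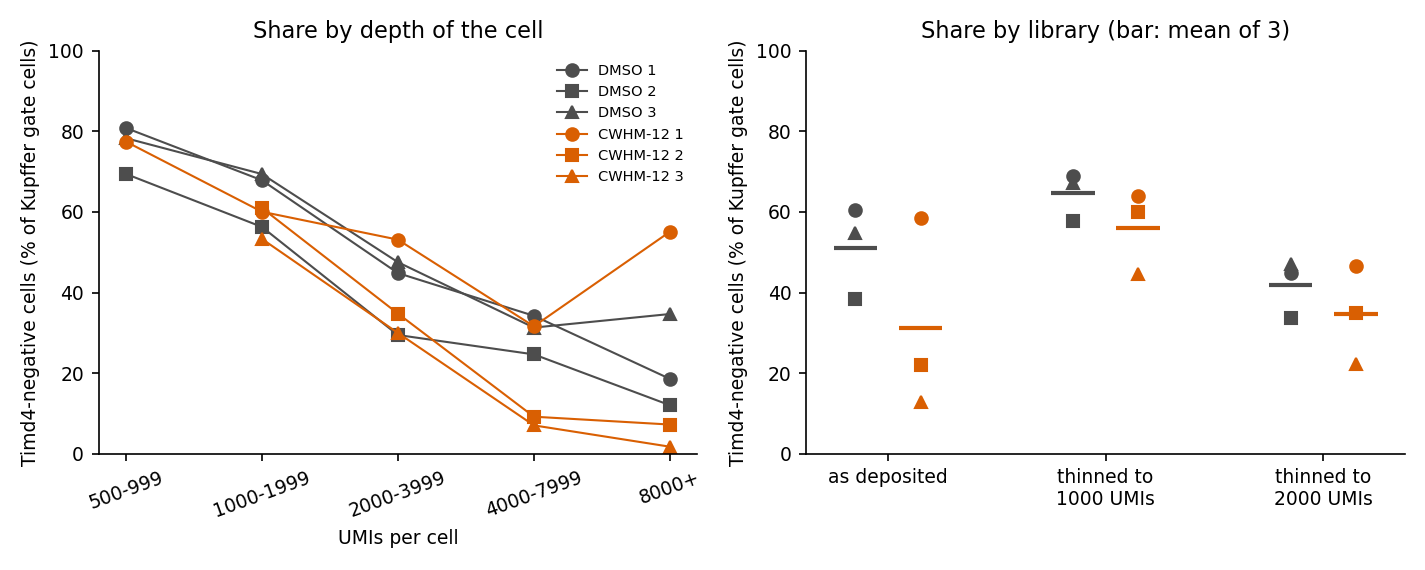
Share of Timd4-negative cells among Timd4-negative and Timd4-positive Kupffer cells (vertical axes, percent) by UMIs per cell (left, 1 line per library, bins of at least 20 cells) and by library at full and at thinned depth (right, short bars are means of 3 libraries). Over all libraries the share is 78.3% under 1000 UMIs and 15.4% from 4000 to under 8000 UMIs, and after thinning to 1000 UMIs the libraries lie between 44.5% and 68.8%.

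The level of Timd4 itself, a ratio of UMIs and not a count of cells at 0, was measured over both classes together. It was 451, 709 and 372 CPM in the DMSO livers and 358, 580 and 831 CPM in the CWHM-12 livers. The groups overlapped, and the log2 fold change was 0.12 (SE 0.45, edgeR adjusted p = 1.00). The sign rested on single libraries, since the log2 fold change was -0.70 without DMSO 3, -0.11 without CWHM-12 3 and 0.93 without CWHM-12 1. In bulk sums of this kind, fewer Timd4-expressing cells and less Timd4 RNA per cell cannot be told apart.

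Against Timd4-positive cells of the same library, the summed UMIs of the members had a weaker resident Kupffer profile and more RNA of several other kinds. Deep barcodes weigh most in such sums. Pooled, the 84 members with 8000 or more UMIs held 1353 Clec4f CPM and 6047 CPM of the hepatocyte marker Alb. The 364 members under 1000 UMIs held 2705 and 3382. Timd4-positive cells held 4028 and 455 from 8000 UMIs upward and 3601 and 3008 under 1000. In CWHM-12 3 the 4 deepest members held 40021 Alb CPM. Of 8227 genes tested with the library as a block, 956 differed (11.6%), 533 of them higher (6.48%) and 423 lower (5.14%) in the members, by the quasi-likelihood test of edgeR at an adjusted p under 0.05. At an unadjusted p under 0.05 there were 2051 (24.9%), and 758 genes were higher (9.21%) and 763 lower (9.27%) in the members of all 6 libraries. The shares of called genes over all genes are the background for the counts by list that follow. RNA of hepatocytes, which the cell suspension held as a minor share by its preparation, moved with this comparison. The 12 hepatocyte markers, all of which had UMIs in every library, made up 0.467% to 0.878% of member UMIs in DMSO libraries and 0.166% to 4.23% in CWHM-12 libraries, against 0.0654% to 0.397% in Timd4-positive cells. All 12 had a positive log2 difference and 8 of them were called higher. Fabp1, a fatty acid carrier of hepatocytes, stood at 259, 145 and 266 CPM in the members of the DMSO livers and at 338, 89.6 and 2429 CPM in the CWHM-12 livers, above Timd4-positive cells of each library (18.3 to 124 CPM). The high value came from CWHM-12 3, where 26 of 75 members (34.7%) had more than 2% hepatocyte-marker UMIs.

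**Figure D2:**
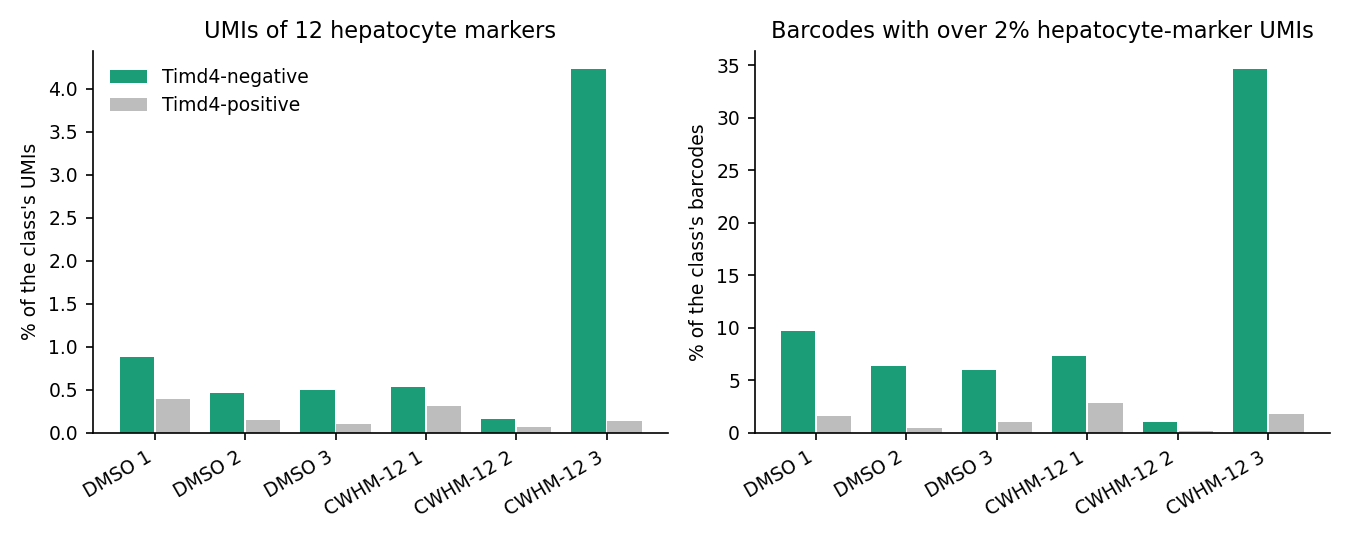
UMIs of 12 hepatocyte markers as a percent of all UMIs of a class (left) and percent of barcodes in which they exceed 2% of UMIs (right), by library, for Timd4-negative (green) and Timd4-positive (grey) Kupffer cells. Timd4-negative cells are higher in every library, and CWHM-12 3 stands apart at 4.23% of UMIs and 34.7% of barcodes.

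The comparison was therefore repeated without barcodes that carry other cells' RNA, an alternative chosen after the data had been seen. It left out 212 members and 142 Timd4-positive cells, namely those with over 2% hepatocyte-marker UMIs or with 3 or more markers of cholangiocytes, T and NK cells, neutrophils, monocytes, dendritic cells or erythroid cells. Then 551 of 7348 genes differed (7.5%), with 318 higher (4.33%) and 233 lower (3.17%), and no gene was called in opposite directions by both. Of the original calls, 173 higher genes (32.5% of 533, 54.4% of 318) and 211 lower genes (49.9% of 423, 90.6% of 233) were shared. Hepatocyte markers remained higher, with 9 of 12 called and a median log2 difference of 0.62 in place of 1.88. Of 10 tested sinusoidal endothelial markers 1 was higher with all barcodes and 6 in the cleaned comparison, with medians of 0.72 and 0.79. Values from this smaller set of barcodes are given beside the results as "cleaned".

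Of the 12 genes that led the higher side by size, 10 had too few UMIs to be tested in the cleaned set. Atp1b1, a subunit of the sodium pump, averaged 176 ± 183 CPM in members and 7.84 ± 4.76 CPM in Timd4-positive cells, and 5 barcodes held 45.3% of its member UMIs. Prox1, a transcription factor of hepatocytes and lymphatic endothelium, averaged 58.0 ± 55.4 CPM in members and 4.59 ± 3.06 CPM in Timd4-positive cells. Slc2a2, the glucose transporter GLUT2 of hepatocytes, ranged from 19.0 to 196 CPM and from 0.556 to 11.5 CPM. Lurap1l, Palmd, Sorbs2, Cth, Dsg2, Spint2 and Clmn had log2 differences of 3.17 to 3.84, each higher in all 6 libraries. Spp1, which encodes osteopontin and is made by bile duct cells and some macrophages, had 51.2% of its member UMIs in 5 barcodes and was at 1.25 CPM in DMSO 1 but 721 CPM in DMSO 3. It did not pass without DMSO 2, DMSO 3 or CWHM-12 2.

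Genes of the resident Kupffer programme were lower in members almost throughout. Of 20 tested members of the Kupffer identity list, 18 were lower and none higher, with a median log2 difference of -0.76 beside -0.00 over all genes tested. In the cleaned comparison, which was not screened for sinusoidal endothelial, stellate or B cell markers, 17 were lower and the median was -0.46. Members with exactly 3 of the 6 macrophage genes held 70.7 Cd163 CPM, and those with 4 or more held 524. From 8000 UMIs upward the pooled members held 146 Cd163 CPM and the pooled Timd4-positive cells 1044. The part of barcodes with little Kupffer RNA in the differences of this list was not tested. Fcna, a ficolin that binds microbial sugars, stood at 901, 470 and 622 CPM in the members of the DMSO livers and at 787, 1771 and 1182 CPM in the CWHM-12 livers. In Timd4-positive cells it stood at 1821, 1150, 2030, 2134, 3033 and 3885 CPM in the same order, higher in each library (log2 -1.32, SE 0.13, edgeR adjusted p = 0.000303). C6, a component of the membrane attack complex, averaged 769 ± 205 CPM in members and 1867 ± 351 CPM in Timd4-positive cells (log2 -1.31, cleaned -1.02). Folr2, the folate receptor beta, averaged 665 ± 243 and 1355 ± 289 CPM (log2 -1.08, cleaned -0.71).

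Scavenger receptors and the transcription factors of the Kupffer programme followed the same direction. Cd163, the receptor for haemoglobin bound to haptoglobin, was 595, 475, 275, 408, 934 and 329 CPM in members of the DMSO livers and the CWHM-12 livers. The Timd4-positive values were 1101, 1184, 1063, 1118, 1546 and 971 CPM, and no value of one class overlapped the other (log2 -1.31, SE 0.15, edgeR adjusted p = 0.000651, cleaned -0.96). Marco, a scavenger receptor for particles, was lower in 5 of 6 libraries and higher in DMSO 1, at 90.2 against 62.8 CPM there (log2 -1.37, SE 0.34, edgeR adjusted p = 0.0252). It did not pass without DMSO 2, DMSO 3 or CWHM-12 1. Mrc1, the mannose receptor, had a log2 difference of -0.54. Nr1h3, the nuclear receptor LXR-alpha that maintains Kupffer identity, averaged 108 ± 41.4 and 200 ± 56.7 CPM (log2 -0.88). Spic, a transcription factor of macrophages that recycle iron, averaged 106 ± 33.2 and 175 ± 38.1 CPM (log2 -0.75). Only 40.0% of members had a Cd163 UMI, and those that did held 3296 Clec4f CPM against 1736 in those that did not.

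Timd4 zeros also follow from depth, so these differences were measured again with the rule applied to cells thinned to 1000 UMIs. Thinning let in barcodes left out at full depth and turned some Timd4-positive cells negative, so the classes were not made of the same cells. This holds wherever the rule was applied at 1000 UMIs. The differences kept their sign and became smaller. Fcna was at -0.37, C6 at -0.35, Folr2 at -0.31 and Cd163 at -0.32 on the log2 scale, all 4 still under an edgeR adjusted p of 0.05, while Marco (-0.24), Spic (-0.16) and Nr1h3 (-0.26) no longer passed. In all, 120 of 6373 genes tested differed at that depth, 76 higher and 44 lower. Of the 533 higher genes of the main comparison 306 were tested there and 51 were called again (9.57% of 533). Of the 423 lower genes 414 were tested and 38 were called again (8.98% of 423). With cells of at least 2000 UMIs thinned to 2000 after the rule was applied, 429 of 4445 genes tested differed and Cd163 was at -1.22. Of the genes named in this comparison and tested with the rule applied at 1000 UMIs, 29 lost their call and kept their sign. For 27 neither the sign nor the outcome of the test changed, and 5 changed sign. Among those 5 were 3 called genes, Cd209f, Il1a and Sgk1. The other named genes had too few UMIs to be tested there. Without the library block 23 named genes lost their call. How much of each difference comes from sampling zeros of Timd4, and how much of each loss from the changed cells, was not tested.

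Lists for the daily work of Kupffer cells moved down as well. Of 19 tested lysosome genes, 12 were lower and none higher, with a median log2 difference of -0.45 (8 lower and -0.18 in the cleaned comparison). Lgmn, an asparagine-specific protease of the lysosome, averaged 734 ± 143 CPM in members and 1248 ± 139 CPM in Timd4-positive cells (log2 -0.78). Ctsd, the aspartic protease cathepsin D, had a log2 difference of -0.73, Grn, which encodes progranulin, of -0.61 and Cd68, a lysosomal glycoprotein of macrophages, of -0.60. In iron and haem handling, 7 of 17 tested genes were lower and none higher. Hmox1, which breaks down haem, was 640, 587, 509, 555, 880 and 549 CPM in members across the 6 libraries and 940, 1241, 913, 805, 1466 and 1260 CPM in Timd4-positive cells. It was lower in the members of each library (log2 -0.82, SE 0.10, edgeR adjusted p = 0.000909, cleaned -0.49). Slc11a1, a metal transporter of the phagosome, had a log2 difference of -0.67. With the rule applied at 1000 UMIs Cd68 (edgeR adjusted p = 0.11) and Slc11a1 (0.35) did not pass, and without the library block Ctsd (0.42), Grn (0.081) and Cd68 (0.087) did not.

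Of 16 tested genes for the uptake of dying cells, 10 were lower and 1 was higher. Mertk, a receptor tyrosine kinase that engulfs apoptotic cells, averaged 416 ± 159 CPM in members and 621 ± 176 CPM in Timd4-positive cells (log2 -0.60, cleaned -0.28). Abca1, a cholesterol exporter, was at -0.61 and Lrp1, a large endocytic receptor, at -0.53 on the log2 scale. Gas6, a ligand that bridges dying cells to Mertk, was the member that rose, at 1.72, and its cleaned difference was 0.30 with an edgeR adjusted p of 0.67. Of 14 complement genes, 7 were lower and 2 higher. C2 averaged 83.0 ± 41.5 and 166 ± 44.7 CPM (log2 -1.09), Cfp, which encodes properdin, had a log2 difference of -0.69 and C4b one of -0.84. For the growth factor receptors of tissue macrophages, 5 of 9 were lower, with Csf2rb, the shared beta chain of the GM-CSF receptor, at -0.61 and Csf3r, the G-CSF receptor, at -0.94. With the rule applied at 1000 UMIs, Mertk, Abca1, Lrp1, C2 and Csf3r did not pass, with edgeR adjusted p from 0.065 for Abca1 to 0.92 for Csf3r.

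Of 18 tested chemokines and chemokine receptors, 4 were higher and 3 lower, beside 6.48% and 5.14% of all genes. Ccl24, an eosinophil attractant, was 80.2, 69.9, 55.9, 64.5, 141 and 59.4 CPM in the members of the 6 libraries and 319, 224, 170, 171, 205 and 152 CPM in Timd4-positive cells (log2 -1.41, SE 0.17, edgeR adjusted p = 0.000817). The ranges of the classes did not overlap. Cxcl13, a B cell attractant, averaged 263 ± 97.4 and 624 ± 84.3 CPM (log2 -1.32, cleaned -0.91). The remaining leading genes on the lower side were Cd209f, a lectin of the DC-SIGN family, Naip1, a sensor of bacterial proteins, and Ms4a8a, Phactr1, Btbd11, Pcolce2, Ifi205 and Kcnj16. Their log2 differences ran from -2.07 for Cd209f to -1.32 for Kcnj16, each lower in all 6 libraries. With the rule applied to cells thinned to 1000 UMIs, Pcolce2 and Kcnj16 passed, Phactr1 was not tested and the other 5 did not pass, with edgeR adjusted p of 0.97 for Cd209f and Btbd11, 0.74 for Naip1 and Ifi205 and 0.35 for Ms4a8a. Cd209f then had the opposite sign, at 0.08. Ccl24 did not pass either, at -0.19 with an edgeR adjusted p of 0.58. Phactr1 did not pass without DMSO 3.

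On the higher side, the 2 leading genes of macrophage character were the chemokine receptors Cx3cr1 and Ccr2. Ccr2, which draws monocytes out of the bone marrow, stood at 109, 109 and 124 CPM in members of the DMSO livers and at 169, 98.2 and 87.4 CPM in the CWHM-12 livers. Timd4-positive cells held 10.6, 6.09, 24.1, 19.2, 5.28 and 5.77 CPM in the same order. The lowest member value was well above the highest Timd4-positive value (log2 3.41, SE 0.24, edgeR adjusted p = 7.4e-05, cleaned 3.41). Cx3cr1, the fractalkine receptor of monocytes and many tissue macrophages, was 100, 240 and 132 CPM in members of the DMSO livers and 78.7, 18.9 and 3.50 CPM in the CWHM-12 livers. It was at most 26.2 CPM in Timd4-positive cells and higher in members of all 6 libraries (log2 3.61, SE 0.40, edgeR adjusted p = 0.000651, cleaned 3.56). Neither receptor was particular to the members. The pooled members held 95.3 Cx3cr1 and 123 Ccr2 CPM. Kupffer gate cells left out for Gpnmb UMIs held 236 and 315, and those left out for Ly6c2 UMIs held 216 and 1416.

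These receptors sat in a minority of members. Ccr2 had a UMI in 75 members (4.53%), and 5 of those barcodes held 30.9% of its 517 UMIs. The 75 had a median of 5779 UMIs and held 930 Clec4f, 129 Cd163 and 10840 H2-Ab1 CPM, where the members without Ccr2 held 2565, 524 and 5049. Cx3cr1 had a UMI in 125 members (7.54%), with 1461 Clec4f and 108 Trem2 CPM against 2505 and 67.4 in the rest. Median depth was 2553 UMIs with Cx3cr1 and 1469 without it. Either receptor was seen in 173 members (10.4%) and both in 27 (1.63%). Itgax, which encodes the CD11c integrin of dendritic cells and some macrophages, had UMIs in 63 members, where Clec4f was at 943 CPM. Xcr1, a receptor of dendritic cells that cross-present antigen, had UMIs in 27 members (1.63%), and 5 barcodes held 71.8% of them. The 10 dendritic cell markers summed to 0.0292% to 0.0623% of member UMIs and to 0.0144% to 0.0466% of those of Timd4-positive cells. Whether barcodes that hold RNA of more than 1 cell account for the levels of Ccr2, Itgax and Xcr1 was not tested.

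Langerin was seen in a broader part of the members than these receptors, and antigen presentation genes were higher in level. Cd207, which encodes langerin, was chosen for description after its values were seen. It was 393, 347, 456, 430, 400 and 353 CPM in members of the 6 libraries and 66.4, 40.9, 146, 142, 146 and 235 CPM in Timd4-positive cells, so the classes did not overlap. The log2 difference was 1.76 (SE 0.25, edgeR adjusted p = 0.00169), 2.03 in the cleaned set and 0.90 when the rule was applied to cells thinned to 1000 UMIs. The pooled members held 407 Cd207 and 5744 H2-Ab1 CPM. Kupffer gate cells left out for Gpnmb UMIs held 431 and 6276, and those left out for Ly6c2 UMIs held 41.0 and 2762. In the members, Cd207 was counted cell by cell. Cd207 had UMIs in 426 members (25.7%), and these held 2491 Clec4f CPM against 2299 in the others. They held 315 Cd163 and 8737 H2-Ab1 CPM, against 570 and 4027 in members without Cd207. Their median depth was 2263 UMIs, against 1346 without Cd207, and the part of depth in these differences was not tested.

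Of 10 tested genes for MHC class II presentation, 5 were higher and 1 was lower, with a median of 0.53. H2-Eb1, a chain of a class II molecule, was 2991, 1518, 3277, 3070, 3080 and 2513 CPM in members and 1711, 750, 1773, 1480, 1526 and 1410 CPM in Timd4-positive cells. It was higher in each library (log2 0.93, SE 0.07, edgeR adjusted p = 0.000104, cleaned 1.14). H2-Ab1 averaged 5567 ± 758 and 3501 ± 445 CPM (log2 0.67) and H2-Aa 5391 ± 941 and 3563 ± 529 CPM (log2 0.59). These 3 genes also passed at an edgeR adjusted p under 0.05 with the rule applied at 1000 UMIs, with log2 differences of 0.39, 0.29 and 0.30. The share of cells with a UMI did not differ in the same way. With the cells of both classes thinned to 1000 UMIs, H2-Ab1 was seen in 54.7% to 85.3% of members and 79.1% to 85.0% of Timd4-positive cells. Ifi30, a thiol reductase that unfolds antigens in the lysosome, was the gene that fell, at -0.74.

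The list of recruited and lipid-associated macrophage genes moved in both directions. Of 21 tested, 8 were higher and 3 lower, with a median of 0.14. Fabp5, a fatty acid binding protein, averaged 29.9 ± 9.75 CPM in members and 9.82 ± 2.81 CPM in Timd4-positive cells and was higher in each library (log2 1.57, SE 0.20, edgeR adjusted p = 0.00093, cleaned 1.59). Lgals1, which encodes galectin-1, averaged 36.1 ± 19.4 and 8.31 ± 3.71 CPM (log2 2.05). Among monocyte genes, 4 of 11 were higher and 1 was lower. S100a6, a calcium-binding protein, had a log2 difference of 1.79, and Fn1, which encodes fibronectin and is also made by hepatocytes, had one of 2.25 that came to 0.28 in the cleaned comparison. Pf4, a chemokine also known from platelets, and Mmp13, a collagenase, were chosen after their values were seen. Pf4 averaged 202 ± 71.0 and 96.3 ± 34.3 CPM (log2 1.06), and Mmp13 75.9 ± 40.0 and 19.3 ± 22.6 CPM (log2 2.35, higher in 5 of 6 libraries). Fn1 passed in the full set of libraries, but when 1 was left out it passed only if that was DMSO 2 or CWHM-12 3. S100a6 did not pass without DMSO 3, and Mmp13 did not without any 1 DMSO library or CWHM-12 2.

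**Figure D3:**
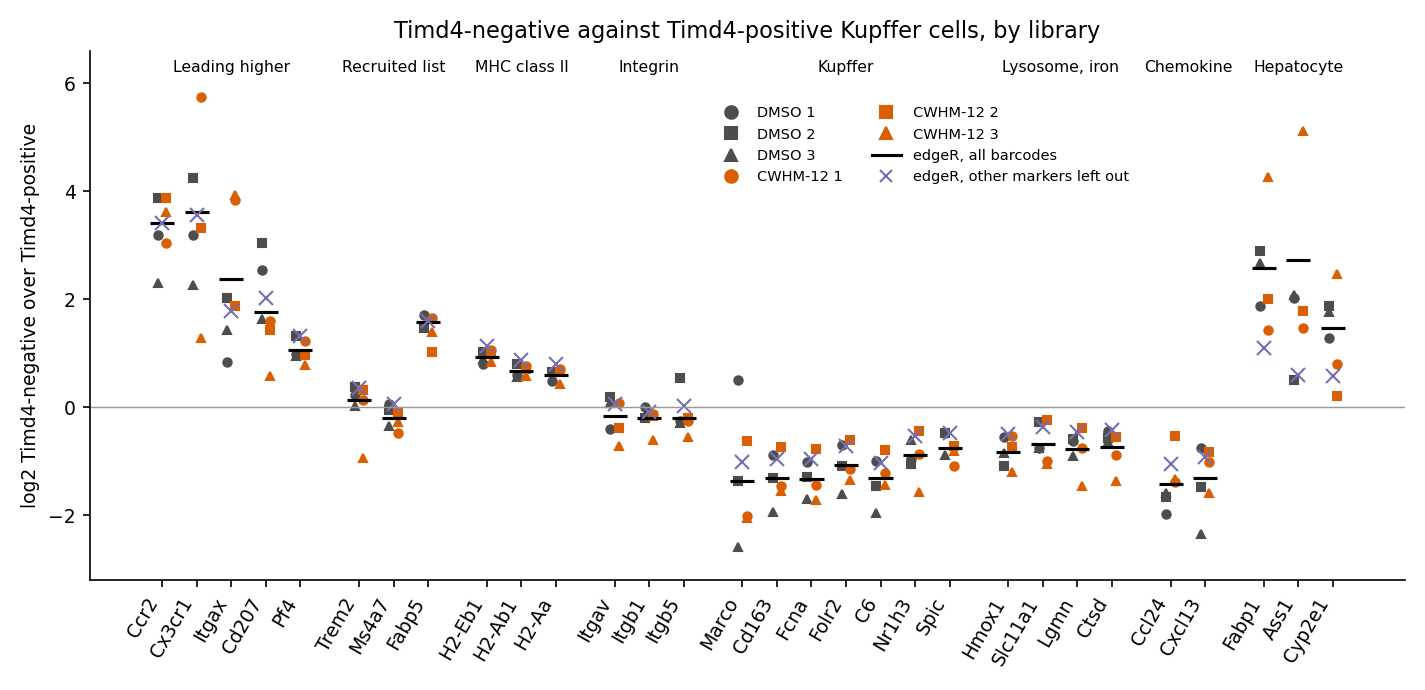
Log2 difference between Timd4-negative and Timd4-positive Kupffer cells (vertical axis) for 30 genes, with 1 point per library, a black bar for the edgeR estimate over all barcodes and a purple cross for the estimate without barcodes that carry markers of other cells. Kupffer, lysosome and iron genes lie under 0 apart from Marco in DMSO 1, chemokine receptors and MHC class II genes lie above it, and the hepatocyte genes drop most when such barcodes are left out.

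**Figure D4:**
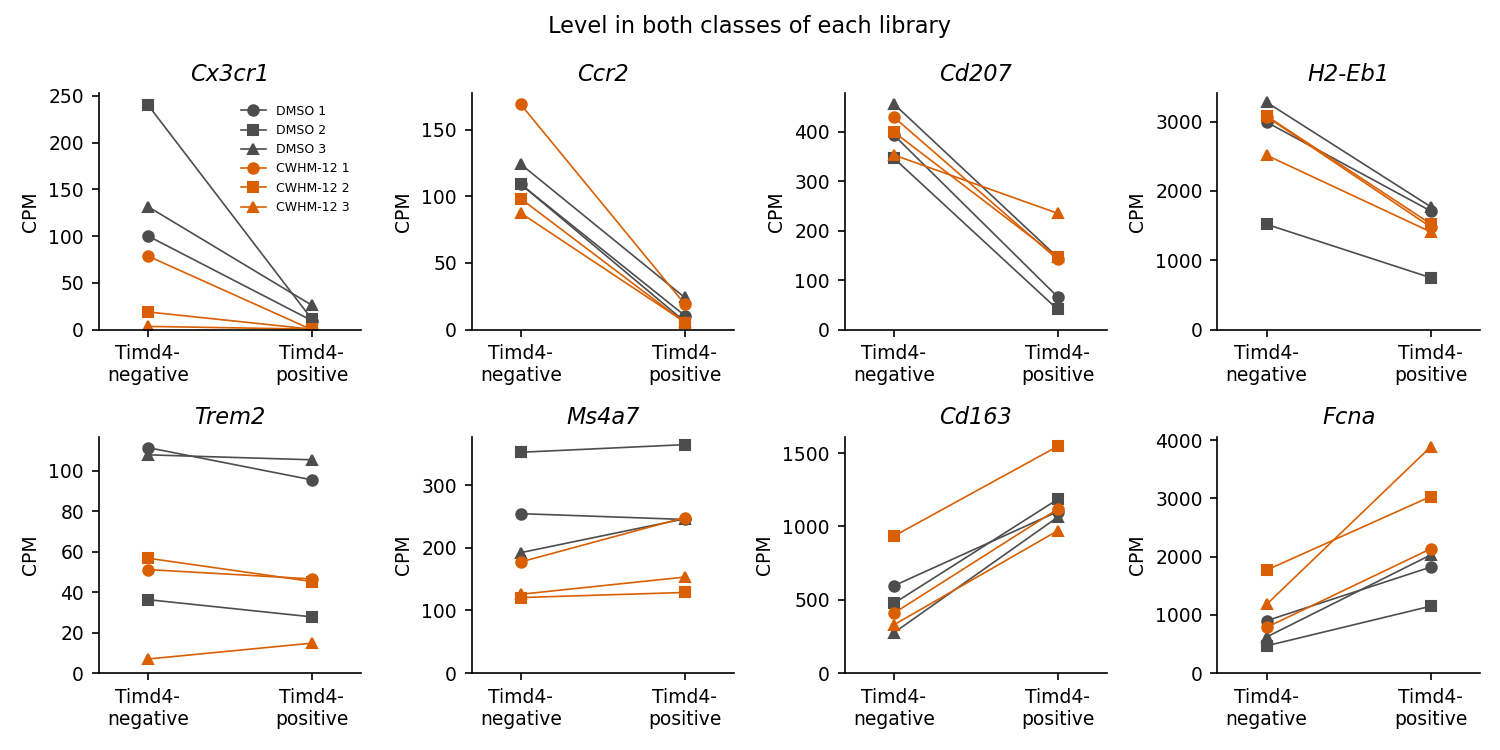
Level (CPM, vertical axes) of 8 genes in Timd4-negative and Timd4-positive Kupffer cells, with 1 line per library (grey DMSO, orange CWHM-12). Ccr2, Cd207 and H2-Eb1 fall from left to right in every library, Cd163 and Fcna rise, and Trem2 and Ms4a7 differ more between libraries than between the classes.

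Of the interferon, early response and NF-kB lists, the shares of genes called lay at or under the 11.6% of all genes. Of 26 interferon response genes 1 was higher and 1 lower. Ifi44, an interferon-induced protein, was 148, 159, 133, 131, 127 and 38.5 CPM in members and 57.5, 55.7, 45.5, 52.7, 49.5 and 19.8 CPM in Timd4-positive cells. It was higher in the members of every library (log2 1.37, SE 0.11, edgeR adjusted p = 0.000104). Of 19 early response genes 2 were lower, among them Klf2 at -0.68, a factor that is induced by flow and restrains macrophage activation. Of 17 NF-kB response genes only Il1a, which encodes interleukin-1 alpha, passed, at -0.82. In 2 lists the share was larger. Of 9 tested cell cycle genes outside the rule, Stmn1, a regulator of microtubules, was higher at 1.07 and Hmgb2, a chromatin protein, at 0.50. Of 12 tested glucocorticoid-induced genes 2 were higher and 5 lower, with Errfi1 at 2.40, which came to 0.71 in the cleaned comparison, and Sgk1, a kinase, at -0.74. Pltp, a phospholipid carrier regulated by LXR, had a log2 difference of -0.58. With the rule applied at 1000 UMIs none of Ifi44, Klf2, Il1a, Stmn1, Hmgb2, Errfi1, Sgk1 and Pltp passed, with edgeR adjusted p from 0.052 for Pltp to 0.99 for Il1a, and Il1a and Sgk1 changed sign. Hmgb2 did not pass without DMSO 1 or CWHM-12 1, nor Pltp without DMSO 3.

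The target of CWHM-12 was expressed in both classes at levels that did not pass the test of a difference. Itgav, the αV chain, was 91.5, 168, 150, 120, 81.0 and 66.4 CPM in members of the DMSO livers and the CWHM-12 livers and 121, 147, 142, 112, 106 and 110 CPM in Timd4-positive cells. It was higher in 3 of 6 libraries and lower in 3 (log2 -0.16, SE 0.13, edgeR adjusted p = 0.506). Itgb5 averaged 148 ± 39.5 and 173 ± 60.6 CPM (log2 -0.19, edgeR adjusted p = 0.384) and Itgb1 479 ± 77.9 and 550 ± 62.5 CPM (log2 -0.20, edgeR adjusted p = 0.189). These β chains pair with αV. Of 21 tested genes of the TGF-beta and activin pathway, 2 were higher and 2 lower, beside 6.48% and 5.14% of all genes. Nrros, which anchors latent TGF-beta on macrophages, averaged 286 ± 83.0 and 395 ± 48.0 CPM (log2 -0.49), and Acvrl1, a receptor of the family, had a log2 difference of -0.55, and neither passed in the cleaned comparison or without any 1 DMSO library, nor Acvrl1 without CWHM-12 1. Smad3, which carries the signal to the nucleus, rose by 1.36 on the log2 scale, and Eng, a co-receptor abundant in endothelium, by 1.43. For Eng, DMSO 1 alone held 154 CPM in members, where the other libraries held 11.2 to 31.2 CPM, and Eng did not pass without any 1 DMSO library. Of the leukocyte integrins, Itgax was at 2.38 and Itga1, a collagen receptor chain, at 1.36, which did not pass without DMSO 1.

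CWHM-12 against DMSO within the members gave no gene that passed. Of 7712 genes tested with batch as a term, 0 had an edgeR adjusted p under 0.05 (0.0%) and 82 had an unadjusted p under 0.05 (1.06%). DESeq2 and limma voom also called 0, with 51 and 321 at an unadjusted p under 0.05. Every CWHM-12 library was above every DMSO library for 329 genes (4.27%) and under every one for 373 (4.84%). The log2 fold change was positive for 4049 genes and negative for 3663. The values that follow therefore describe these libraries and are no calls. Levels are CPM of this fit, which was scaled without the Timd4-positive cells.

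The lowest p-values with at least 20 CPM in a group belonged to 8 genes. Cd63, a tetraspanin of late endosomes that marks lipid-associated macrophages, was 65.1, 79.7 and 82.2 CPM in the DMSO livers and 21.1, 39.5 and 20.4 CPM in the CWHM-12 livers. The groups did not overlap, and the log2 fold change was -1.58 (SE 0.36, edgeR unadjusted p = 0.0034), -1.64 and -1.44 within the batches and -1.64 in the cleaned set. Olfml3, an extracellular glycoprotein of macrophages, was 38.8, 17.1 and 42.5 CPM against 6.70, 15.5 and 3.40 CPM (log2 -2.03, SE 0.56, edgeR unadjusted p = 0.0082). Josd2, a deubiquitinase, was 6.26, 5.69 and 5.80 CPM against 20.1, 20.6 and 30.6 CPM (log2 1.88). Dusp2, a phosphatase that switches off MAP kinases, had a log2 fold change of 1.56 that came to 0.21 in the cleaned set. Thap12 was at -1.13 and Cd24a, with overlapping groups, at -1.69. Oit3 and Lyve1, both sinusoidal endothelial genes, were at -1.77 and -1.33.

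Sinusoidal endothelial RNA was lower in the CWHM-12 libraries, mainly because DMSO 1 was high. The 12 sinusoidal markers summed to 0.181%, 0.0887% and 0.0687% of member UMIs in the DMSO libraries. In the CWHM-12 libraries they summed to 0.0604%, 0.0677% and 0.0491%, so DMSO 3 and CWHM-12 2 of batch 2024.12 were nearly equal. Every marker was detected in each library. All 10 outside the rule had a negative log2 fold change, with a median of -0.85 beside 0.03 over all genes tested, but of -1.19 in batch 2024.6 and -0.19 in batch 2024.12. The 12 hepatocyte markers had a positive one each, with a median of 1.33 that came to -0.24 in the cleaned set and to -0.12 and 0.87 in batches 2024.6 and 2024.12. Stab1, a scavenger receptor shared by sinusoidal endothelium and macrophages, was 168, 76.9 and 97.6 CPM in DMSO and 59.4, 61.8 and 37.4 CPM in CWHM-12 (edgeR unadjusted p = 0.038). The part of these cells' RNA in the fold changes of the members was not tested.

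Genes of recruited and lipid-associated macrophages were mostly lower under CWHM-12, without any call. Of 22 tested, 17 had a negative log2 fold change, where 3663 of all 7712 genes had one. Without overlap in that direction were 6 of the 22, where 373 of all genes (4.84%) were. The median was -0.26 (-0.13 in batch 2024.6 and -0.48 in batch 2024.12). Cx3cr1 was 100, 245 and 134 CPM in the DMSO livers and 79.5, 18.9 and 3.40 CPM in the CWHM-12 livers, lower in each CWHM-12 library (log2 -2.09, SE 0.66, edgeR unadjusted p = 0.015). The log2 fold change was -1.16 without DMSO 3 and -3.40 without CWHM-12 1. Without the filter on low counts its edgeR adjusted p was 0.00031, and its adjusted p over all alternatives ran from 0.00031 to 1.0. Ms4a7 was 254, 359 and 196 CPM against 179, 120 and 122 CPM (log2 -0.73, SE 0.27, edgeR unadjusted p = 0.029), at -0.74 and -0.68 within the batches. Trem2 was 111, 37.0 and 110 CPM against 51.7, 56.7 and 6.80 CPM, with overlap (log2 -1.10, SE 0.67, edgeR unadjusted p = 0.14), and its log2 fold change ran from -1.67 to -0.58 with a library left out. In CWHM-12 3, Cx3cr1 had a UMI in 1.33% and Trem2 in 2.67% of its 75 members, so these values rest on very few UMIs. Olfml3 at 3.40 and Cxcl10 at 6.80 CPM were as low in that library. Ccr2 was 109, 111 and 127 CPM against 170, 97.9 and 85.0 CPM, and its log2 fold change of 0.09 changed sign under several alternatives.

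The resident Kupffer genes had no shared direction between the treatments. Of 20 tested identity genes 9 had a positive and 11 a negative log2 fold change, with a median of -0.04 (-0.36 in batch 2024.6 and 0.10 in batch 2024.12). Fcna was 900, 478 and 635 CPM in DMSO and 795, 1766 and 1149 CPM in CWHM-12 (log2 0.70, SE 0.43, from 0.17 without DMSO 3 to 1.20 without CWHM-12 1). Cd163 was 594, 484 and 280 CPM and 412, 931 and 320 CPM (log2 0.38, SE 0.58), Folr2 had a log2 fold change of 0.53 (SE 0.45) and Marco one of 0.61 (SE 0.65). Without DMSO 3 the last 3 were negative, at -0.43, -0.18 and -0.64. Cxcl13 was 297, 233 and 115 CPM and 381, 345 and 207 CPM, and Cxcl10, an interferon-induced chemokine, 32.5, 74.0 and 101 CPM and 16.3, 39.5 and 6.80 CPM. The groups overlapped for both (log2 0.89 and -1.82). Without the filter on low counts Cxcl10 had an edgeR adjusted p of 0.021, in a range of 0.021 to 1.0 over the alternatives.

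The genes nearest to the drug's target were mostly lower without passing. Itgav was 91.3, 171 and 153 CPM in the DMSO livers and 121, 80.7 and 64.6 CPM in the CWHM-12 livers (log2 -0.57, SE 0.36, edgeR unadjusted p = 0.16), with -0.05 in batch 2024.6 and -1.05 in batch 2024.12, and it ran from -1.07 to -0.16 with a library left out. Itgb1 had a log2 fold change of -0.14 (SE 0.27), Itgb5 one of -0.27 (SE 0.34) and Itgb8 one of 0.57 (SE 0.74), the last with no UMI in DMSO 1 and DMSO 2. Of 21 tested genes of the TGF-beta and activin pathway 14 had a negative log2 fold change, with a median of -0.30. Skil, a repressor of the pathway that TGF-beta itself induces, was 165, 194 and 194 CPM against 96.7, 122 and 112 CPM (log2 -0.81, SE 0.25, edgeR unadjusted p = 0.015), at -0.87 and -0.72 within the batches. Tgfbr1, the type I receptor, was 111, 177 and 103 CPM against 85.2, 72.1 and 51.0 CPM (log2 -0.74, SE 0.31, edgeR unadjusted p = 0.0497). Neither gene overlapped between the groups, and 4.84% of all genes were likewise lower without overlap.

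Early response genes, which cells also switch on during dissociation, had a positive log2 fold change in 17 of 17 tested, with a median of 0.36. Within the batches the medians were 0.03 and 0.62. Klf2 was 106, 165 and 128 CPM in the DMSO livers and 133, 522 and 588 CPM in the CWHM-12 livers, so the high values were those of CWHM-12 2 and 3 (log2 1.06, SE 0.56, edgeR unadjusted p = 0.101). Without DMSO 3 the log2 fold change was -0.07. Nr4a1, an immediate early nuclear receptor, was 11.3, 28.5 and 39.6 CPM against 48.8, 61.8 and 129 CPM (log2 1.31, SE 0.47, edgeR unadjusted p = 0.026). Mt1, a metallothionein induced by glucocorticoids and metals, was 188, 94.0 and 333 CPM against 322, 431 and 544 CPM (log2 0.86). Mitochondrial RNA made up 9.42% to 13.3% of member UMIs in DMSO and 9.10% to 12.1% in CWHM-12, and its part in these values was not tested.

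**Figure D5:**
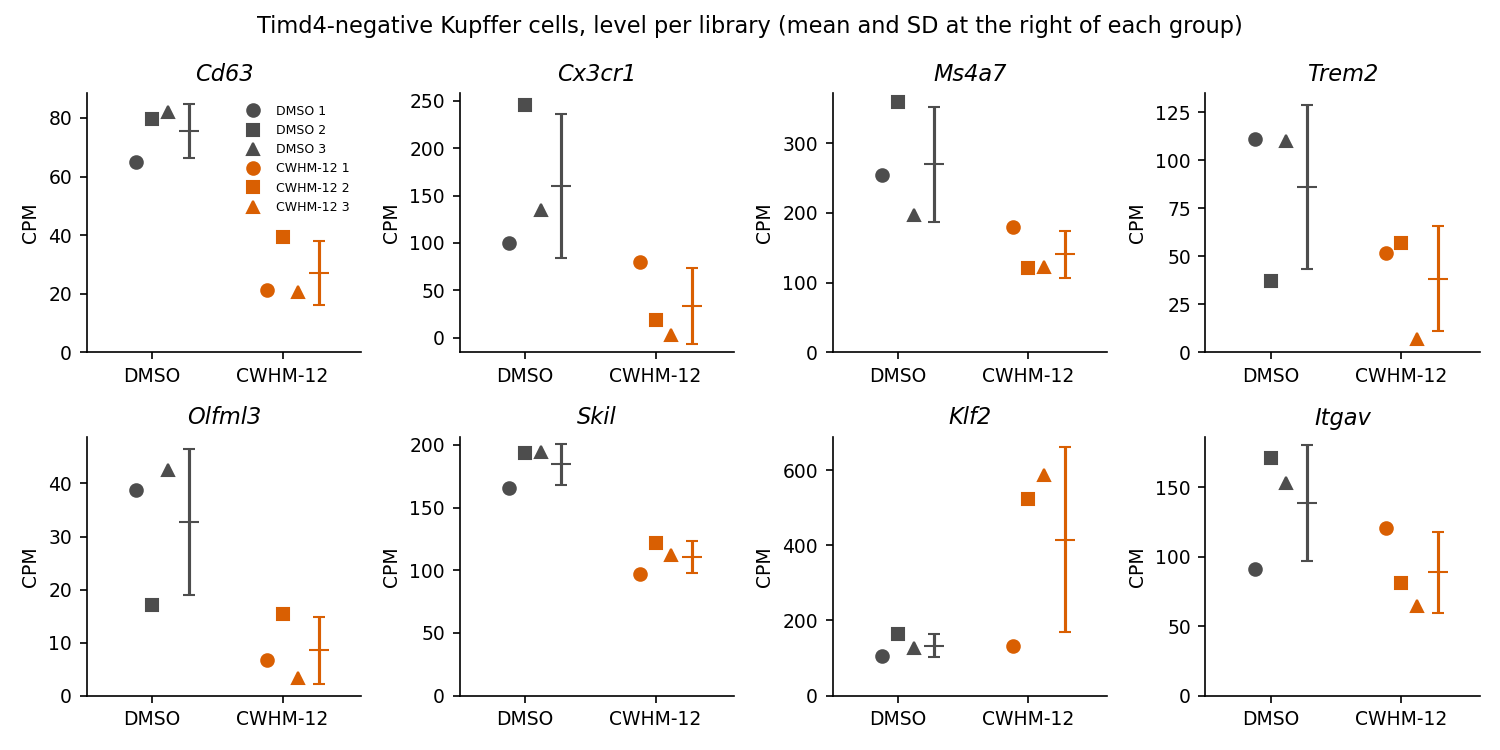
Level (CPM, vertical axes) of 8 genes in Timd4-negative Kupffer cells of 3 DMSO and 3 CWHM-12 libraries, with the mean and SD beside each group. Cd63, Cx3cr1, Ms4a7, Olfml3 and Skil do not overlap between the groups, Trem2, Klf2 and Itgav do, and none of the 8 passed at an adjusted p under 0.05.

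Whether the drug acted differently on members and on Timd4-positive cells was tested as an interaction over 9244 genes. No gene passed (0.0%), 161 had an unadjusted p under 0.05 (1.74%), and DESeq2 called 0 with 23 at an unadjusted p under 0.05. Both classes of a library share its preparation. Cd63, chosen here after its values were seen, was 29.1, 29.7 and 18.6 CPM in Timd4-positive cells of the DMSO livers and 13.1, 6.96 and 3.02 CPM in those of the CWHM-12 livers, so its groups were apart in each class (interaction log2 -0.03, SE 0.61). The lowest p-values belonged to Xcr1, Atp1b1, Pter, Mmp12, Tm4sf1, Serpina3f, Itgax and Resf1, of which Xcr1 (interaction log2 3.27, SE 0.77, edgeR unadjusted p = 0.0019) and Itgax (2.16, SE 0.63, edgeR unadjusted p = 0.0067) are the dendritic cell genes described above.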

How the data were processed

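The deposited values are whole-number UMI counts for each gene in 10000 barcodes of each of 6 libraries, per the file headers, prepared with BD Rhapsody whole transcriptome kits, per the labels. Per the submitters' processing notes, the genome was GRCm39, and which aligner was run is not given in the sources used here. All members, gene lists and marker lists were chosen with earlier results of these data known. For each library, the counts of all cells in a class were added up and compared by the quasi-likelihood test (edgeR 4.0.16, R 4.3.3), with TMM scaling, its filter on low counts and the Benjamini-Hochberg adjustment over all genes tested. The treatment fit held a batch term, the class fit the library as a block, and the interaction fit the library, the class and class by batch. The 18 genes of the rule were left out of the calls. SE was worked back from the F statistic. Levels are CPM on TMM-scaled totals, given as mean ± SD, and a within-batch value is the difference between the groups' mean log2 CPM there. B-like and endothelial-like cells, used as background, were those with at least 3 markers of that type and fewer than 3 of the 6 macrophage genes of the rule. Doublets were scored with Scrublet in scanpy 1.11.5. A score of at least 0.25 was found in 1 to 29 members a library, which were kept, and their removal was an alternative. Shares of cells carry Wilson 95% intervals.

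The genes named are, in each comparison, the 12 (or fewer) most raised and 12 most lowered genes that passed with at least 20 CPM in a group and the same sign in all libraries or both batches. Where fewer than 5 passed, the 8 of smallest p were named as values. Added to these are Trem2, Ms4a7, αV and its β partners, and up to 4 members of smallest p of each list, of which the text describes a part. The text marks genes that this rule did not pick. Alternatives were DESeq2 1.42.0 and limma 3.58.1 (voom with sample weights), other scaling, filters, blocks and depths, doublets removed, a stricter cell filter (500 genes, 1000 UMIs, 15% mitochondrial), each library left out, and barcodes with markers of other cells left out. The fits were run on simulated counts with the same spread for every gene and changes only in well-expressed genes. That run does not cover weakly expressed genes or RNA of other cells. Gene positions and sequences were not used, and 0 columns were without a sample.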

Additional observations from a re-analysis of the deposited data

Results flagged for a closer look

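In 14 of 95 sets of 6 library values the highest or lowest library stood apart from the rest by Dixon's 95% criterion, which chance alone would meet in about 1 set in 20. In CWHM-12 3, hepatocyte markers made up 4.23% of member UMIs, and the log2 difference between members and Timd4-positive cells stood apart for Ass1 (5.12, high), Trem2 (-0.94, low), Pltp (-1.25, low), Itgb1 (-0.61, low) and Ifi44 (0.91, low). In DMSO 1, sinusoidal endothelial markers made up 0.181% of member UMIs, and the difference stood apart for Eng (2.95, high), Spp1 (-4.53, low) and Ifi205 (-2.60, low). In CWHM-12 1, T and NK cell markers made up 0.0255% of member UMIs, and Il1a stood at -1.39. Lgals1 was lowest in CWHM-12 2 at 1.09, and Itgb5 was highest in DMSO 2 at 0.54. The part of other cells' RNA in these single-library values was not tested.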

How the results depend on the processing

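The count of genes that differed between members and Timd4-positive cells depended on the processing. From 956 of 8227 tested it moved to 393 of 8227 without the library block and 2278 of 18816 without the filter on low counts. It was 551 of 7348 without barcodes that carry other cells' markers and 429 of 4445 in cells of at least 2000 UMIs thinned to 2000. With the rule applied to cells thinned to 1000 UMIs it was 120 of 6373. The number of genes tested differed, so these counts are not compared on 1 set of genes. With each library left out in turn it ran from 440 (without DMSO 3) to 1141 (without CWHM-12 3) and was 573 without CWHM-12 1. The share of higher calls, 55.8%, was 70.0% without the block and 63.3% at 1000 UMIs. No gene was called in opposite directions. The other settings gave 734 to 1071. The treatment comparison gave 0 calls under each alternative, leave-one-out fits included (0 to 0), except 50 of 16817 without the filter on low counts (38 higher, 12 lower). The interaction gave 6 without that filter, 2 after thinning to 2000 UMIs (the haemoglobin genes Hba-a1 and Hba-a2, named after their values were seen) and 0 to 3 with a library left out (1 without CWHM-12 1, 3 without CWHM-12 2). It was not run with the rule applied at 1000 UMIs. The Timd4 log2 fold change ran from -0.70 (without DMSO 3) to 0.93 and was -0.11 without CWHM-12 3. The share difference ran from -33.7 to -10.97 points with a library left out.

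The labels do not say whether replicate numbers pair the libraries, and they were not treated as pairs. Same-number correlations were 0.087, 0.032 and -0.015 in the members and 0.25, 0.12 and -0.068 over all cells of the Kupffer gate. With the number as a replicate block the treatment comparison gave 0 calls and 240 genes at an unadjusted p under 0.05, the Timd4 log2 fold change was 0.17, and Ccr2 turned to -0.0109.

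Of genes named, these changed sign between the classes. Trem2 was at -0.0203 under the stricter cell filter and -0.0228 in cells of at least 2000 UMIs. Without barcodes carrying other markers Ms4a7 was at 0.0570, Itgb5 at 0.0310 and Itgav at 0.0563, and Itgb5 was at 0.0198 after thinning to 2000 UMIs. With the rule applied at 1000 UMIs Ms4a7 was at 0.0777, Cd209f at 0.0765, Il1a at 0.0149, Itgav at 0.00508 and Sgk1 at 0.0188. Between treatments, Dusp2 was at -0.15 and Itgb1 at 0.00708 at that depth. Ccr2 was at -0.00435 without barcodes carrying other markers and -0.0314 in cells of at least 2000 UMIs. With a library left out, Ccr2 ran from -0.47 (without CWHM-12 1) to 0.59. The lowest values without DMSO 3 and the highest without CWHM-12 1 were -0.0698 and 2.10 for Klf2, -0.18 and 1.20 for Folr2, -0.43 and 1.17 for Cd163, and -0.64 and 1.85 for Marco. Itgb5 ran from -0.68 (without CWHM-12 1) to 0.0952 (without DMSO 3). The cause was not tested. Depth limits what can be read from single members, whose median held 1498 UMIs.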
